A study of Mus musculus with 12 samples.

Results

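The 10 genes described here, Cplx3, Rorb, Cux2, Fezf2, Tbr1, Foxp2, Lamp5, Tshz2, Rspo1 and Tle4, are markers of neocortical layers that were picked by symbol from the 24736 genes of a total RNA table. The table holds 6 hippocampal libraries, 3 from male mice aged 4 months that carry the APPswe and PSEN1dE9 transgenes (APP/PS1) and 3 from wild-type (WT) littermates of the same sex and age. Replicates are called 1, 2 and 4 in WT and 1, 2 and 3 in APP/PS1, after the library titles, and were taken to be separate mice. Neither the strain background nor the promoter driving each transgene is stated by the labels. App, the gene of the main transgene, stood at 2948 to 3465 counts scaled to a common library size (CPM) in the APP/PS1 libraries and at 1522 to 1580 CPM in the WT libraries, so the genotype labels and this gene point the same way in all 6.

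The neocortex is built of stacked layers whose excitatory neurons differ in where they send their axons, and a small set of transcription factors and surface proteins is switched on layer by layer. Cux2, Rorb, Rspo1 and Lamp5 are used as markers of the upper layers, Fezf2 and Tshz2 of layer 5, and Tbr1, Foxp2, Tle4 and Cplx3 of layer 6 or of the thin layer 6b beneath it. None of these genes is restricted to neocortex: Lamp5 also marks a class of interneurons, Tbr1 is a general factor of glutamatergic forebrain neurons, and Foxp2 is also made in striatum, thalamus and cerebellar Purkinje cells. The labels give the tissue as hippocampus, which borders the neocortex in the brain. In bulk tissue, fewer cells of a type and less RNA per cell cannot be told apart.

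All 10 genes were among the 18060 that passed the low-count filter. The lowest value among the 10 was 61 estimated counts for Rspo1, in APP/PS1 replicate 3. RefSeq's promoter table (build GRCm38.p6) held 13 windows for 9 of the 10 genes, all except Foxp2, each from 250 bases before to 50 bases after a transcription start. The first window of 3 genes is shown, picked by their place in the genotype comparison below. Lamp5 and Tbr1 were the only members whose groups did not overlap, with APP/PS1 wholly below WT as for 4.76% of all genes. Cplx3 had the smallest unadjusted p in edgeR's quasi-likelihood test. The adjusted p of that test was 0.887 for each of the 3, so no genotype difference was found for them. Capitals mark a GC box (GGGCGG) or a ROR half-site (AGGTCA), the element bound by the factor that Rorb encodes, on either strand. The sequences run 5′ to 3′ on the gene's strand.
Lamp5, chr2:136052089-136052388, plus strand: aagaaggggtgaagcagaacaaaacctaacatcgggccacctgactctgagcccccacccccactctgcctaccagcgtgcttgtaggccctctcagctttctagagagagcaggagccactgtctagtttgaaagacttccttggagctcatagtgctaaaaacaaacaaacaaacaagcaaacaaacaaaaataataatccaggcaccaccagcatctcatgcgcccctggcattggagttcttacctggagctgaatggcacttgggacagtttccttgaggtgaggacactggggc
Tbr1, chr2:61804203-61804502, plus strand: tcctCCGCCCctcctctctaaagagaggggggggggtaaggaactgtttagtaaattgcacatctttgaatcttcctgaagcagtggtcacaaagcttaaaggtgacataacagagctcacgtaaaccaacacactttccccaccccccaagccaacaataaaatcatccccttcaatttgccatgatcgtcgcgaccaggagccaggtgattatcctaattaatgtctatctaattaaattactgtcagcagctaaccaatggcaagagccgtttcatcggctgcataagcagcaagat
Cplx3, chr9:57606232-57606531, minus strand: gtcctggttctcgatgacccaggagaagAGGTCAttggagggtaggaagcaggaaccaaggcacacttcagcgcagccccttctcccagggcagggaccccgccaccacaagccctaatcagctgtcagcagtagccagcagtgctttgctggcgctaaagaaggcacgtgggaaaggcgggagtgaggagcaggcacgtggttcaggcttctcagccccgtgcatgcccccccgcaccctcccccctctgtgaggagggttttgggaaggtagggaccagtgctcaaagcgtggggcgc
The Lamp5 window held 3 CpG dinucleotides and was 50.7% G or C, the Tbr1 window held 7 and was 46.0%, and the Cplx3 window held 11 and was 62.7%. The median over the 32851 promoter windows of the table was 7 CpG dinucleotides and 52.7%. A GC box was found in 6 of the 13 windows, of 5 genes, against 35.7% of all windows, and a ROR half-site in 1 of the 13, that of Cplx3, against 16.3%. The T-box half-site GGTGTGA, bound by factors such as Tbr1, was in 0 of the 13 and in 3.98% of all windows, and the TATA box TATAAA in 1 of the 13, the second window of Cux2, and in 13.6%. The motifs were searched on both strands, none of the 4 contains another, and a match is given as a description only.

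The 6 libraries held 120958765 to 146904552 estimated counts. APP/PS1 replicate 3 stood apart, and this bears on every result below. A list of 10 cerebellar markers summed to 3844 CPM in that library against 74.5 to 96.4 CPM in the other 5, or 77.8 to 96.4 CPM in WT and 74.5 to 3844 CPM in APP/PS1. Fat2, a cadherin of cerebellar granule cells, stood at 1327 CPM there and at 1.84 to 3.39 CPM in the other 5 libraries, and Pcp2, a Purkinje cell gene, at 162.7 CPM against 0.323 to 0.679 CPM. Of the cerebellar list, 9 of 10 genes were tested, all 9 were higher in that library than the mean of the others, and no gene of the list was at 0 throughout the WT libraries. Gabra6, the gene not tested and named after its values were seen, stood at 282.8 CPM in that library and at 0 to 0.329 CPM in the other 5. Markers of hippocampal pyramidal and granule cells, which check the labelled tissue, were present in all 6 libraries, with none at 0, and summed to 823.3 to 940.1 CPM in 5 libraries and 508.2 CPM in APP/PS1 replicate 3. In that library 11 of these 12 markers were below the mean of the other libraries, with a median ratio of 0.563 and a range from 0.433 to 1.26. Results are therefore given with and without this library, and the part of the cerebellar transcripts in the layer marker values was not tested.

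**Figure D1:**
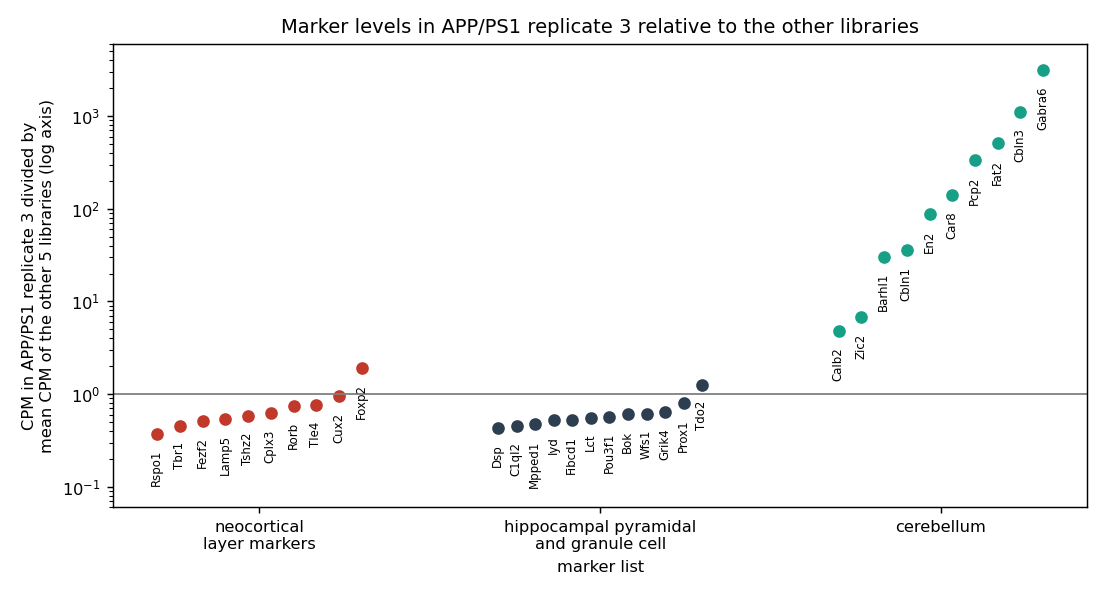
Ratio of the CPM in APP/PS1 replicate 3 to the mean CPM of the other 5 libraries (log axis) for the 10 layer markers, 12 hippocampal markers and 10 cerebellar markers, with 1 point per gene and a line at 1. Of the layer markers, 9 lie under 1 and Foxp2 lies at 1.90, while all cerebellar markers lie above 1.

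Among the upper-layer markers, values were lowest in APP/PS1 replicate 3 for 3 of the 4 genes and highest in WT replicate 4 for 3 of the 4. Lamp5 (chromosome 2, 136052025 to 136069917, mm10), a lysosome-associated membrane protein family member of neurons, stood at 26.2, 29.1 and 26.9 CPM in WT replicates 1, 2 and 4 and at 23.2, 23.3 and 13.8 CPM in APP/PS1 replicates 1, 2 and 3. All APP/PS1 values lay below all WT values, and replicate 3 lay far below its 2 group mates. Rorb (chromosome 19, 18930609 to 19111196), an orphan nuclear receptor of layer 4 neurons, stood at 61.5, 62.9 and 77.4 CPM in WT and 57.0, 61.8 and 47.7 CPM in APP/PS1, in the same order of replicates. The groups overlapped, since APP/PS1 replicate 2 lay above WT replicate 1. Rspo1 (chromosome 4, 124986401 to 125009102), a secreted amplifier of Wnt signalling, stood at 1.10, 1.30 and 1.37 CPM in WT and 1.12, 1.08 and 0.446 CPM in APP/PS1. APP/PS1 replicate 3 thus held 0.373 times the mean of the other 5 libraries, the lowest such ratio of the 10 genes. That ratio rests on only 61 estimated counts in this library, which may stand for fewer fragments. Cux2 (chromosome 5, 121857962 to 122050415), a homeobox factor of upper-layer neurons, differed from these 3: it stood at 40.3, 48.8 and 53.4 CPM in WT and 37.2, 42.4 and 42.0 CPM in APP/PS1. Its level in APP/PS1 replicate 3 was 0.946 times the mean of the others, close to that in replicate 2, and its lowest value was in APP/PS1 replicate 1.

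Both layer 5 markers were lowest in APP/PS1 replicate 3 and highest in WT replicate 4, but they spread to very different degrees. Fezf2 (chromosome 14, 12338992 to 12346803), a zinc finger factor that specifies neurons projecting to brainstem and spinal cord, stood at 42.4, 40.9 and 45.3 CPM in WT replicates 1, 2 and 4 and at 39.6, 44.1 and 21.7 CPM in APP/PS1 replicates 1, 2 and 3. Apart from replicate 3 the highest library exceeded the lowest by only 1.14-fold, the smallest such spread of the 10 genes. Tshz2 (chromosome 2, 169632509 to 170072751), a teashirt zinc finger factor of a layer 5 class with short-range projections, stood at 79.3, 152.9 and 194.0 CPM in WT and 88.0, 100.8 and 70.9 CPM in APP/PS1. WT replicate 1 was below 2 of the APP/PS1 libraries, and the WT libraries alone spanned 2.45-fold, a coefficient of variation of 40.9% that 9.03% of all genes exceeded. RefSeq places 3 long noncoding RNA genes within the Tshz2 span, of which A630075F10Rik had 56 to 246 and AY702102 had 23 to 74 estimated counts per library against 9642 to 28551 for Tshz2. No source used here says whether the authors' counting used strand.

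Among the deep-layer markers, APP/PS1 replicate 3 was lowest for Tbr1 and Tle4 and APP/PS1 replicate 1 for Cplx3 and Foxp2. Tbr1 (chromosome 2, 61802863 to 61814114), a T-box factor of layer 6 neurons that project to the thalamus, stood at 81.9, 86.3 and 112.1 CPM in WT replicates 1, 2 and 4 and at 78.1, 80.4 and 39.8 CPM in APP/PS1 replicates 1, 2 and 3. The groups did not overlap, although APP/PS1 replicate 2 and WT replicate 1 lay close together. Tle4 (chromosome 19, 14448072 to 14598183), a Groucho corepressor of layer 6 neurons, stood at 84.3, 73.7 and 87.1 CPM in WT and 84.9, 81.7 and 62.4 CPM in APP/PS1. Its groups overlapped widely, with APP/PS1 replicate 3 lowest and WT replicate 2 next. Cplx3 (chromosome 9, 57599992 to 57606281), a complexin that regulates transmitter release and marks layer 6b, stood at 5.43, 7.92 and 10.2 CPM in WT and 2.93, 5.94 and 4.05 CPM in APP/PS1. APP/PS1 replicate 1, not 3, was its lowest library, 3.49-fold below WT replicate 4, and WT replicate 1 lay below APP/PS1 replicate 2.

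Foxp2 (chromosome 6, 14901349 to 15441977), a forkhead factor, was the exception of the set. It stood at 4.37, 6.13 and 6.13 CPM in WT and at 2.13, 5.21 and 9.11 CPM in APP/PS1 replicates 1, 2 and 3. Replicate 3, low for most other members, was the highest of the 6 libraries for Foxp2, at 1.90 times the mean of the others, and APP/PS1 replicate 1 was the lowest. The coefficient of variation within APP/PS1 was 63.9%, the largest of the 10 genes, against 18.4% within WT. The Purkinje cell gene Pcp2 was high in the same library, and its part in the Foxp2 value was not tested.

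**Figure D2:**
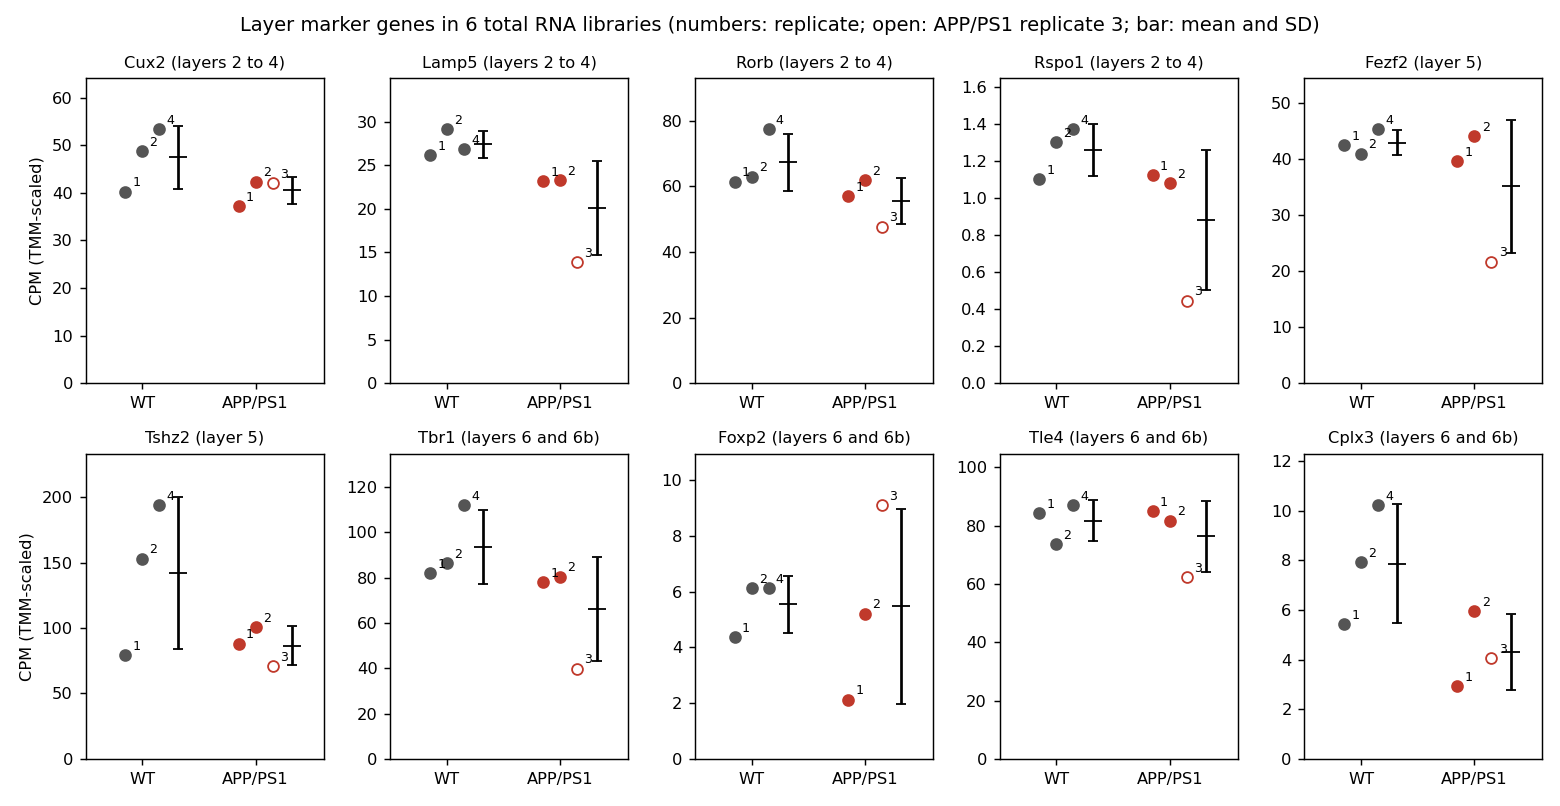
CPM of each layer marker in the 6 libraries, 1 panel per gene with its own axis from 0, WT in grey and APP/PS1 in red with the replicate number beside each point; the bars give the mean and SD of 3 libraries. The open circle of APP/PS1 replicate 3 is the lowest point for 7 genes and the highest for Foxp2.

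The first comparison asked whether the layer markers differ between the genotypes. All 10 log2 fold changes (APP/PS1 over WT) were negative, where 47.7% of all genes tested had a negative one, and their median was -0.37 against 0.01 over all genes. Negative values were also held by 10 of 10 myelin, 8 of 8 microglia and 11 of 12 hippocampal markers. They were fewer among interneuron (8 of 12), pan-neuronal (6 of 8), thalamus (6 of 10), striatum (5 of 10), astrocyte (4 of 8), choroid plexus (0 of 10) and cerebellar (0 of 9) markers. None of the 10 layer markers passed edgeR's quasi-likelihood test at a Benjamini-Hochberg adjusted p of 0.05 over all genes, a threshold that 0.00554% of the genes, 1 of 18060, passed. Before adjustment 1 of the 10, Cplx3, had p under 0.05 against 3.42% of all genes, and with DESeq2 0 of 10 passed after adjustment (0.145% of all genes) and 3 of 10, Lamp5, Tshz2 and Cplx3, had an unadjusted p under 0.05 (4.87% of all genes). With limma-voom 0 of 10 passed after adjustment (0.00554% of all genes) and 2 had an unadjusted p under 0.05 (3.43% of all genes). The 10 genes are not independent of each other and were chosen with earlier results of these libraries known.

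Cplx3 had the largest difference, from 7.86 ± 2.40 CPM in WT to 4.30 ± 1.52 CPM in APP/PS1 (SD over 3 libraries each). Its log2 fold change was -0.87 (SE 0.33), with an adjusted p of 0.887 in edgeR's quasi-likelihood test. Tshz2 followed at -0.72 (SE 0.32), from 142.1 ± 58.1 to 86.5 ± 15.03 CPM. Rspo1 had -0.51 (SE 0.37), Tbr1 -0.50 (SE 0.28) and Lamp5 -0.45 (SE 0.20). The values of Fezf2, Rorb and Cux2 were -0.29 (SE 0.25), -0.28 (SE 0.13) and -0.23 (SE 0.12). Tle4 had -0.10 (SE 0.14) and Foxp2 -0.02 (SE 0.48), both smaller than their errors. edgeR's adjusted p lay between 0.887 and 0.997 for all 10. The APP/PS1 group lay wholly below WT for 2 of the 10, Lamp5 and Tbr1, as it did for 4.76% of all genes, and wholly above for none of the 10 (5.63% of all genes).

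Without APP/PS1 replicate 3 the differences of the genes that were low in that library shrank, and that of Foxp2 grew. The median log2 fold change of the 10 moved from -0.37 to -0.24, with 9 of 10 negative against 50.3% of all genes. Such a one-sided sign was not particular to the layer markers. Negative without that library were 10 of 10 myelin, 8 of 8 astrocyte, 11 of 12 interneuron and 9 of 10 thalamus markers. So were 8 of 9 cerebellar, 7 of 8 pan-neuronal and 7 of 10 striatum markers. The hippocampal (6 of 12), microglia (3 of 8) and choroid plexus (0 of 10) lists did not share it. Fezf2 moved from -0.29 to -0.04 (SE 0.08), Tle4 from -0.10 to 0.02 (SE 0.09), Rspo1 from -0.51 to -0.20 (SE 0.23), Tbr1 from -0.50 to -0.24 (SE 0.14) and Lamp5 from -0.45 to -0.24 (SE 0.08). Cplx3 stayed near its value at -0.83 (SE 0.37), as did Tshz2 at -0.59 (SE 0.34), Cux2 at -0.26 (SE 0.13) and, less closely, Rorb at -0.18 (SE 0.12). These genes leaned on another library: without WT replicate 4, the highest library for all 4, Tshz2 had -0.42, Cux2 -0.135, Rorb -0.164 and Cplx3 -0.63. Tle4 had -0.05 without it, and Fezf2 had -0.48 without APP/PS1 replicate 2. Foxp2 moved from -0.02 to -0.60 (SE 0.38). In these 5 libraries edgeR's adjusted p was 0.995 for all 10, and 0.0273% of all genes passed. Lamp5 alone of the 10 had an unadjusted p under 0.05, against 4.03% of all genes. The groups of Lamp5 and Tbr1 could not overlap here, since leaving out a library cannot create an overlap. Of all genes, 9.37% lay wholly lower in the 2 remaining APP/PS1 libraries.

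**Figure D3:**
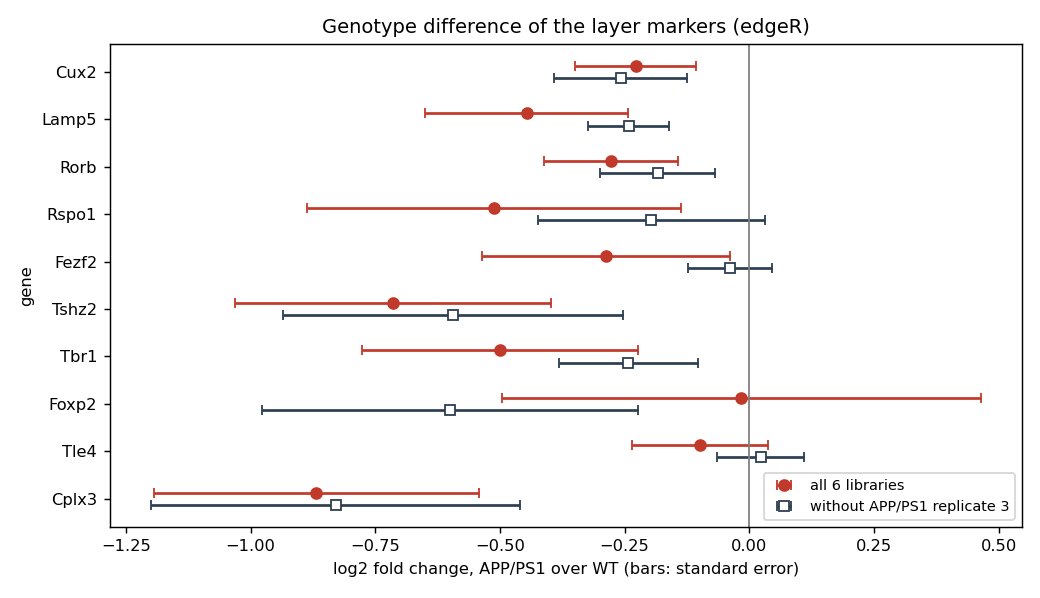
Log2 fold change of APP/PS1 over WT from edgeR for each layer marker, with bars of 1 standard error; filled circles use all 6 libraries and open squares leave out APP/PS1 replicate 3. All 10 circles lie below 0, and without the library Rspo1, Fezf2 and Tle4 lie within 1 standard error of 0 while Foxp2 moves to -0.60.

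The second comparison asked whether the layer markers vary together from library to library. Each library was set against the mean of the other 5 on the log2 CPM scale. The median over the 10 genes was 0.07, 0.27 and 0.38 for WT replicates 1, 2 and 4 and -0.05, 0.06 and -0.64 for APP/PS1 replicates 1, 2 and 3, where the median over all genes lay between -0.005 and 0.02 in every library. APP/PS1 replicate 3 was the lowest library for 7 of the 10 genes, against 30.3% of all genes, and APP/PS1 replicate 1 for the other 3, Cux2, Foxp2 and Cplx3 (16.7% of all genes). WT replicate 4 was the highest library for 8 of the 10, all except Lamp5 and Foxp2, against 11.7% of all genes. The set was therefore spread between a high library in WT and a low library in APP/PS1, with the other 4 libraries in between.

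**Figure D4:**
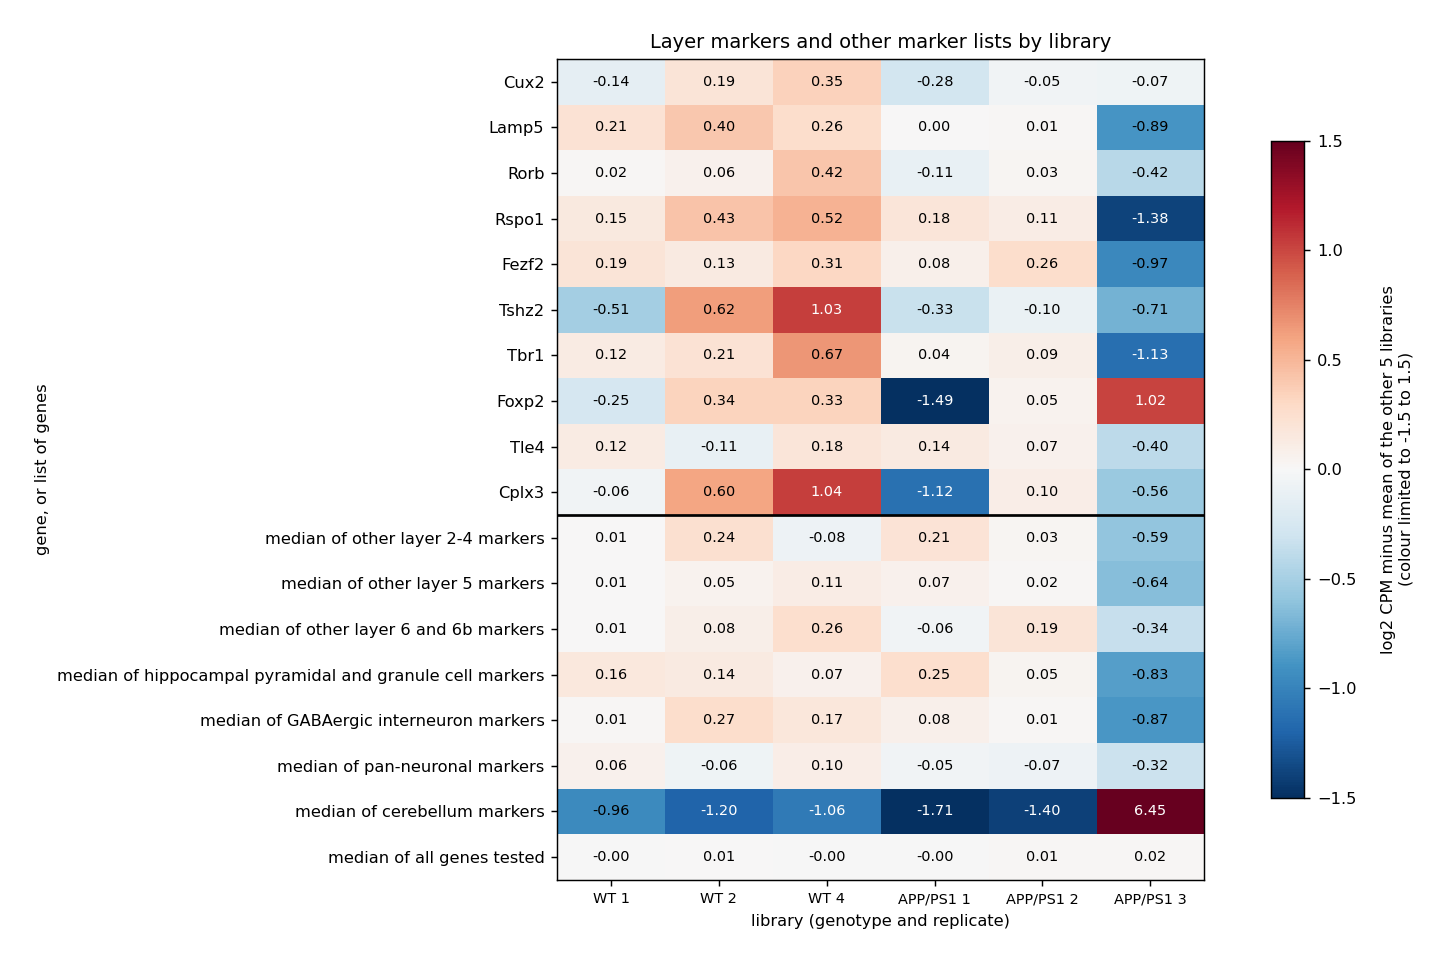
Log2 CPM of each library minus the mean of the other 5, for the 10 layer markers (above the line) and as medians of other marker lists and of all genes tested (below the line); red is higher, blue is lower, and colours end at -1.5 and 1.5. Most layer markers are red in WT replicate 4 and blue in APP/PS1 replicate 3, the hippocampal list is blue in APP/PS1 replicate 3 only, and the cerebellar list reaches 6.45 there.

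Across the 6 libraries the 45 pairs of layer markers had a median Pearson r of 0.685, 39 of 45 were positive and 17 (37.8%) had r of at least 0.8. Over the 163072770 pairs of all genes tested the median r was 0.001, 50.1% were positive and 6.07% reached 0.8. All 6 negative pairs held Foxp2. Without Foxp2 all 36 pairs were positive, with a median of 0.775. In the exact two-sided permutation test, 12 of 45 pairs had an unadjusted p under 0.05 with Pearson's r and 7 with Spearman's rho. After Benjamini-Hochberg adjustment over the 45 pairs 0 passed with either, the smallest adjusted p being 0.0893 and 0.15. The share of all gene pairs with an unadjusted p under 0.05 was not computed, so the counts of 12 and 7 have no background. The test also shuffled libraries across both genotypes, so it does not set apart a shared genotype difference. Of the 17 strong pairs, 2 still had r of at least 0.8 and 4 turned negative when the 2 libraries farthest from the median of the first gene were left out. With 3 libraries per genotype, no correlation within a genotype was computed.

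Pairs differed in how much of their correlation 1 library carried. Rorb and Tbr1 had r = 0.943 and rho = 0.943 over 6 libraries (exact permutation p = 0.00556 and p = 0.0167, adjusted p = 0.0893 and 0.15), r = 0.829 with WT replicate 4 and APP/PS1 replicate 3 left out, and r = 0.983 without APP/PS1 replicate 3. Cux2 and Cplx3 had r = 0.931 and rho = 0.943 (exact permutation p = 0.00833 and p = 0.0167, adjusted p = 0.0893 and 0.15), r = 0.772 with WT replicates 2 and 4 left out and r = 0.950 without APP/PS1 replicate 3. These 2 relations kept their sign in each case. Rspo1 and Fezf2 had a higher r of 0.968 but rho = 0.486 (exact permutation p = 0.106 and p = 0.356, adjusted p = 0.232 and 0.471), and r was 0.272 without APP/PS1 replicate 3 and -0.451 with WT replicate 4 left out as well. That relation rests on those 2 libraries, and Rspo1 had only 61 estimated counts in APP/PS1 replicate 3. Rspo1 and Tle4 went from r = 0.845 (exact permutation p = 0.203, adjusted p = 0.343) with rho = 0.657 (exact permutation p = 0.175, adjusted p = 0.315) to r = -0.164 without APP/PS1 replicate 3, and to -0.905 with WT replicate 4 left out as well.

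Without APP/PS1 replicate 3 most pairs of the set were still positive, but a different gene stood outside it. Over the 5 libraries the median r of the 45 pairs was 0.691, 39 were positive and 14 (31.1%) had r of at least 0.8, against a median of -0.0002 and 5.57% over all pairs of genes. Such a median is not particular to these genes: it was 0.962 for the choroid plexus list and 0.870 for the myelin list, with all pairs positive in both, 0.476 for the thalamus list, and between 0.12 and 0.336 for the other 7 lists of tissue and cell type markers. Now all 6 negative pairs held Tle4, whose r with the mean of the other 9 genes went from 0.537 to -0.184. Foxp2 went the opposite way, from -0.130 to 0.808, and the highest value was 0.987 for Cux2. WT replicate 4 was the highest of the 5 for 8 genes (17.9% of all genes) and APP/PS1 replicate 1 the lowest for 7 (22.0% of all genes). The median of the 10 against the mean of the other 4 was -0.20 and -0.06 in APP/PS1 replicates 1 and 2 and -0.09, 0.17 and 0.35 in WT replicates 1, 2 and 4. WT replicate 1 thus lay with the APP/PS1 libraries rather than with the other WT libraries. Of the 17 pairs with r of at least 0.8 in 6 libraries, 6 kept it in these 5.

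**Figure D5:**
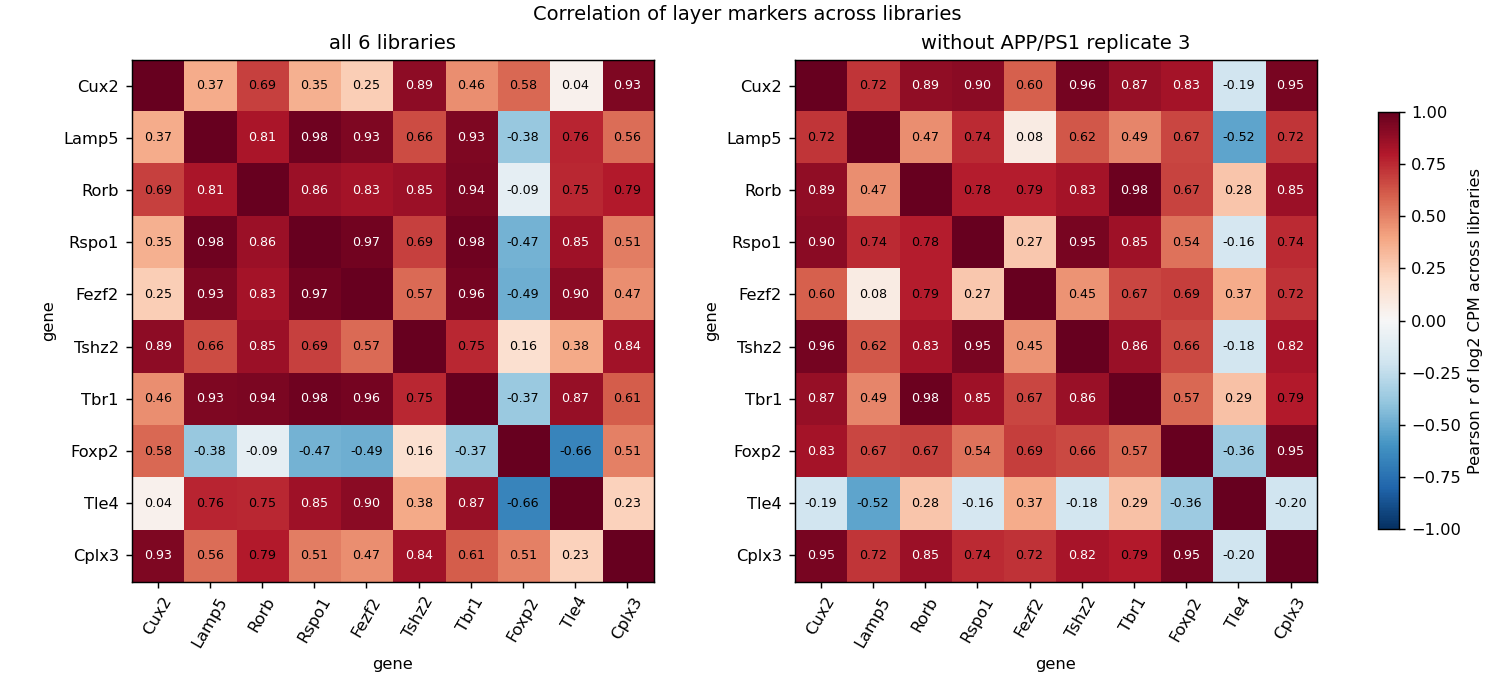
Pearson r of log2 CPM between each 2 layer markers across 6 libraries (left) and across the 5 without APP/PS1 replicate 3 (right), red positive and blue negative. The negative values all belong to Foxp2 on the left and to Tle4 on the right, and the median r is 0.685 and 0.691.

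Most other markers of the same layers were also low in APP/PS1 replicate 3, but the median log2 fold change of all of them was near 0 without it. Lists of 11 further genes for layers 2 to 4, 12 for layer 5 and 12 for layers 6 and 6b held 35 genes, all tested, of which 0 passed edgeR's test over all genes (0.00554% of all genes) and 22 had a negative log2 fold change (47.7% of all genes), with a median of -0.16. At an unadjusted p under 0.05, 0 of 35 were lower (1.52% of all genes) and 1, Sulf1, was higher (1.9% of all genes), a share near the background. APP/PS1 replicate 3 was the lowest library for 21 of the 35 (30.3% of all genes) and the highest for 7 (31.4% of all genes). In that library 23 of 35 lay below the mean of the other 5 (48.0% of all genes), with a median of -0.59, close to that of the 10 members. Without that library the median log2 fold change was -0.01, 18 of 35 were negative, and the median r of their 595 pairs was -0.02, from 0.14 in all 6 libraries. WT replicate 4 was then the highest library for 12 (17.9% of all genes) and the lowest for 11 of the 35 (18.2% of all genes). The difference between the 10 members and the 35 other markers was not tested, because the members were chosen with results known.

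By list, the median log2 fold change was -0.08 for the other markers of layers 2 to 4, -0.18 for layer 5 and -0.19 for layers 6 and 6b, or 0.03, -0.05 and 0.02 without APP/PS1 replicate 3. Scnn1a, a sodium channel subunit of layer 4, stood at 7.68 ± 0.512 CPM in WT and 5.12 ± 1.996 CPM in APP/PS1, a log2 fold change of -0.58 (SE 0.30). Nr4a2, a nuclear receptor of layer 6b and claustrum, had -0.46 (SE 0.20) and Qrfpr, a peptide receptor, -0.83 (SE 0.54). Without APP/PS1 replicate 3, Scnn1a had -0.30 (SE 0.13), Nr4a2 -0.28 (SE 0.13) and Qrfpr -0.39 (SE 0.24). Qrfpr stood at 0.198 CPM in that library and at 0.869 to 1.28 CPM in the other 5. Calb1, a calcium-binding protein that Purkinje cells also make in quantity, stood at 83.0 to 99.3 CPM in 5 libraries and 400.1 CPM in APP/PS1 replicate 3. Etv1 likewise stood at 155.2 to 178.5 CPM in 5 libraries and 403.1 CPM in that one. Sulf1, a heparan sulfatase, stood at 30.4 to 32.4 CPM in the WT libraries and APP/PS1 replicate 1 and at 62.3 and 51.8 CPM in APP/PS1 replicates 2 and 3. With all 6 libraries, edgeR's adjusted p was 0.887 for each of these 6 genes.

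The markers of hippocampal pyramidal and granule cells give the labelled tissue's own behaviour beside the layer markers. Their median against the other 5 libraries was -0.83 in APP/PS1 replicate 3 and 0.05 to 0.25 in the others. APP/PS1 replicate 3 was the lowest library for 11 of the 12 genes (30.3% of all genes). Without that library the median log2 fold change of the 12 genes was 0.03, with 6 of 12 negative, and the median r of their 66 pairs went from 0.875 to 0.126. WT replicate 4 was the highest of the 5 libraries for 1 of the 12 (17.9% of all genes). In APP/PS1 replicate 3 the median ratio to the other libraries was 0.600 for the 10 layer markers and 0.563 for the hippocampal markers.

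Lists for other tissues and cells that a hippocampal sample can hold were read without APP/PS1 replicate 3, as the median of a list in WT replicate 4 and in APP/PS1 replicate 1 against the other 4 libraries. It was 0.22 and -0.53 for the 9 tested cerebellar markers, 0.36 and -0.40 for 10 thalamus markers, 0.01 and -0.27 for 10 striatum markers, 0.04 and -0.05 for 12 GABAergic interneuron markers, and 0.09 and -0.02 for 8 pan-neuronal markers. It was -0.41 and -0.09 for 10 choroid plexus markers, -0.16 and -0.33 for 10 myelin markers, 0.02 and -0.04 for 8 astrocyte markers, and -0.13 and 0.14 for 8 microglia markers. The thalamus list summed to 270.8 to 333.8 CPM in WT and to 245.2 and 289.7 CPM in APP/PS1 replicates 1 and 2, and to 947.3 CPM in replicate 3, with no gene at 0 in any library. Zic1 at 410.9 CPM and Rora at 391.9 CPM held most of the sum in replicate 3. The median of the thalamus list there was -0.22 against the other 5 libraries, and 6 of its 10 genes lay below their mean. The high sum was thus not shared by most genes of the list. By their medians the thalamus and cerebellar lists were both highest in WT replicate 4 and lowest in APP/PS1 replicate 1 among these 5 libraries. The medians of the layer markers were ordered likewise at both ends. By summed CPM both lists were also lowest in APP/PS1 replicate 1 but highest in WT replicate 2. The thalamus sum was 333.8 CPM there and 306.9 CPM in WT replicate 4. The cerebellar sum was 96.4 CPM in WT replicate 2, 77.8 CPM in WT replicate 4 and 85.3 CPM in APP/PS1 replicate 2. The part of these lists in the layer marker values was not tested. Median log2 fold changes in all 6 libraries were -0.16 for thalamus, -0.12 for striatum, -0.29 for interneurons, -0.18 for pan-neuronal genes, -0.26 for myelin, -0.02 for astrocytes, -0.21 for microglia, 0.69 for choroid plexus and 4.79 for cerebellum. No gene of these lists passed edgeR's test over all genes.

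The genes whose pattern over the 6 libraries was most like the mean of the 10 layer markers were sought among 14616 other genes with a mean of at least 1 CPM. The 8 with the highest Pearson r were Gm11549, Rxfp1, Fzd2, Ash1l, Klf5, Zc3h7b, Il15ra and Hmgb3, with r from 0.985 to 0.995. Rxfp1, the relaxin receptor, stood at 19.1, 25.1 and 32.9 CPM in WT replicates 1, 2 and 4 and at 14.0, 19.4 and 9.15 CPM in APP/PS1 replicates 1, 2 and 3, a 3.60-fold span. Ash1l had r = 0.987 but spanned only 522.3 to 537.5 CPM, so a high r here does not mean a large change. Over the 5 libraries without APP/PS1 replicate 3 the 8 genes were Edaradd, Car8, Chchd6, Ciart, Rxfp1, Rora, Hlf and Phka1, with r from 0.994 to 0.999, and Rxfp1 was the 1 gene on both lists. Rora, a nuclear receptor related to Rorb, stood at 75.9 and 89.99 CPM in APP/PS1 replicates 1 and 2 and 84.5, 101.7 and 113.2 CPM in WT, and at 391.9 CPM in APP/PS1 replicate 3. With so few libraries and so many genes, such values are a description.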

How the data were processed

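Total RNA libraries from the hippocampus of 3 APP/PS1 and 3 WT mice were used, grouped by the genotype in the labels. Libraries were made with a stranded total RNA kit, per the labels' protocols. The authors deposited whole-number estimated counts per gene symbol, used without further rounding. HISAT2, StringTie and DESeq and the build mm10 are named in the submitters' processing notes, without roles or versions. No source used here gives the counting step, the annotation or its strand setting. Among low values, 4 occurred 1817 times and 3 occurred 897 times, so 1 fragment may stand for about 4 estimated counts, and the depth in fragments is uncertain. Gene lengths were not used here, so levels were not compared between genes. Coordinates are from RefSeq (GRCm38.p6, the build mm10), in which 24076 symbols matched.

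Counts were compared with edgeR 4.0.16 (R 4.3.3) by the quasi-likelihood test, with TMM normalization, the default expression filter, no covariate and Benjamini-Hochberg adjustment over all genes tested. CPM are scaled to TMM-adjusted totals, and log2 CPM use a prior count of 2. SE derives from the fold change and the F statistic. The procedure was tested on simulated counts in which no library was set apart across many genes. That test therefore cannot show how APP/PS1 replicate 3 affects the calls made here. The spread between libraries, a biological coefficient of variation of 26.4%, or 19.7% without APP/PS1 replicate 3, limits the precision.

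The members and the 13 other marker lists were chosen with earlier results of these data known. Of the list for layers 2 to 4, Pvrl3, an older symbol of its member Nectin3, was dropped. All members are named. Of each other list the rule took the 2 genes with the smallest p, and those of the layer and cerebellar lists are reported. The most similar genes were the 8 with the highest r. Alternatives were other size factors and filters, DESeq2 1.42.0, limma-voom (limma 3.58.1), division of the counts by 4, a prior count of 0.5, a replicate block and leaving out each library. Ranks, similar genes and list medians without APP/PS1 replicate 3 were added after seeing the data. The small RNA table was not used here.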

Additional observations from a re-analysis of the deposited data

How the results depend on the processing

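No layer marker passed the threshold under any of the 14 other settings with edgeR, DESeq2 or limma-voom, with 0 to 3 of 10 at an unadjusted p under 0.05, against 1.88% to 8.17% of all genes. The count over all genes was 1 in the reported fit, 26 with DESeq2, 2 with the replicate block, and 0 to 6 with 1 library left out: 6, 1 and 5 on leaving out APP/PS1 replicates 1, 2 and 3, and 0, 0 and 4 on leaving out WT replicates 1, 2 and 4. At an unadjusted p under 0.05, edgeR called 371 and 345 genes in the fits that gave 0. The median log2 fold change of the 10 genes, -0.37 as reported, stayed negative throughout, from -0.53 to -0.24 with 1 library left out, and was -0.14 with the replicate block. Signs turned for 3 genes. With the replicate block, Fezf2 had 0.0041 and Tle4 0.079. With 1 library left out, Tle4 ranged from -0.179 to 0.0234 (positive on leaving out APP/PS1 replicate 3). Foxp2 ranged from -0.599 to 0.375, with 0.375 and 0.02 on leaving out APP/PS1 replicates 1 and 2 and 0.067 and 0.062 on leaving out WT replicates 2 and 4. The cause was not tested. The median of the 10 genes in APP/PS1 replicate 3 lay between -0.81 and -0.45, and the median pairwise r between 0.615 and 0.786, with 1 library left out. The replicate numbers 1 and 2 are shared by both genotypes, so the block's fold changes use 2 pairs. APP/PS1 replicate 3 and WT replicate 4, the low and high libraries of the set, have no partner and do not enter them. Deviations of same-numbered libraries from their group means correlated at 0.088 and -0.044 over genes. Each group mean includes the other libraries of its group, so these values cannot show whether same-numbered samples share more than a number. Each statement on a single library rests on that library alone.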
